A study of Mus musculus with 2 samples.

Results

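Hydrogen peroxide and superoxide are removed in cells by a small set of enzymes. The products of Sod1, Sod2, Cat, Gpx1, Gpx4, Prdx1, Prdx2, Prdx3 and Prdx4 are among them. The transcripts of these genes and of Hmox1, 10 genes in all, were followed in the mouse beta-cell line MIN6. These genes were chosen by name for their role, with earlier results of these data known. Each symbol matched 1 of the 55466 genes listed for each library. One library came from cells kept at 25 mM glucose for 1 h and one from cells kept at 2.8 mM glucose for 1 h. Both followed 0.5 h at 2.8 mM, and both incubations were in the salt buffer KRBH. MIN6 is a transformed insulinoma line derived from mice that carried a viral oncogene under the insulin promoter, so it models the beta cell only in part. With 1 library per concentration no value has a replicate error and no difference could be tested, so every difference given is one between 2 libraries.

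The defence works in steps. Superoxide dismutases turn superoxide into hydrogen peroxide, which is then reduced to water by catalase in peroxisomes, by glutathione peroxidases that draw on glutathione, and by peroxiredoxins that are recycled by thioredoxin. Heme oxygenase 1 acts beside them by breaking down free heme, and its gene is a well-known target of the oxidative stress factor NRF2. Beta cells of rodents are known for low catalase and low glutathione peroxidase activity compared with liver. Other tissues were not analysed here, so the levels below are set only against other genes of the same 2 libraries.

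Levels are in FPKM, fragment counts that the authors scaled for transcript length and library depth before deposit, so genes of different length can be set side by side. A gene counts as expressed where its mean over both libraries was at least 1 FPKM, which held for 12694 genes. The 25 mM library held 16790000 fragments and the 2.8 mM library 19640000, as estimated from the steps between low FPKM values. Of 13 beta-cell markers, 11 were expressed, with a sum of 65104 FPKM at 25 mM, against 74865 at 2.8 mM. The glucose transporter gene Slc2a2 was at 0.653 FPKM at 25 mM and 0.469 at 2.8 mM, below that level, as was Ucn3. Gcg, the glucagon gene of alpha cells, was at 2764 FPKM at 25 mM, against 2804 at 2.8 mM, while neither library listed Sst or Ppy above 0. The 8 erythroid markers, of cells rich in Cat and Prdx2, summed to 1.27 FPKM at 25 mM and 0.664 at 2.8 mM. The 9 macrophage and leukocyte markers, of cells that can be rich in Hmox1, summed to 5.29 FPKM at 25 mM, against 6.16 at 2.8 mM, with Ptprc, Adgre1 and Itgam at 0. The 9 acinar, 6 ductal, 8 stromal and 5 endothelial markers each summed to less than 5 FPKM in either library.

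The dismutase and peroxiredoxin transcripts were abundant, and those of catalase and Gpx1 were not. Of the 10 genes, 7 were at 100 FPKM or more in both libraries, whereas the median expressed gene stood at 14.3 FPKM at 25 mM, against 14.5 at 2.8 mM. Cat lay below that median and Gpx1 below the expression limit. Together the 10 genes took 0.260% of the summed FPKM at 25 mM and 0.250% at 2.8 mM.

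**Figure D1:**
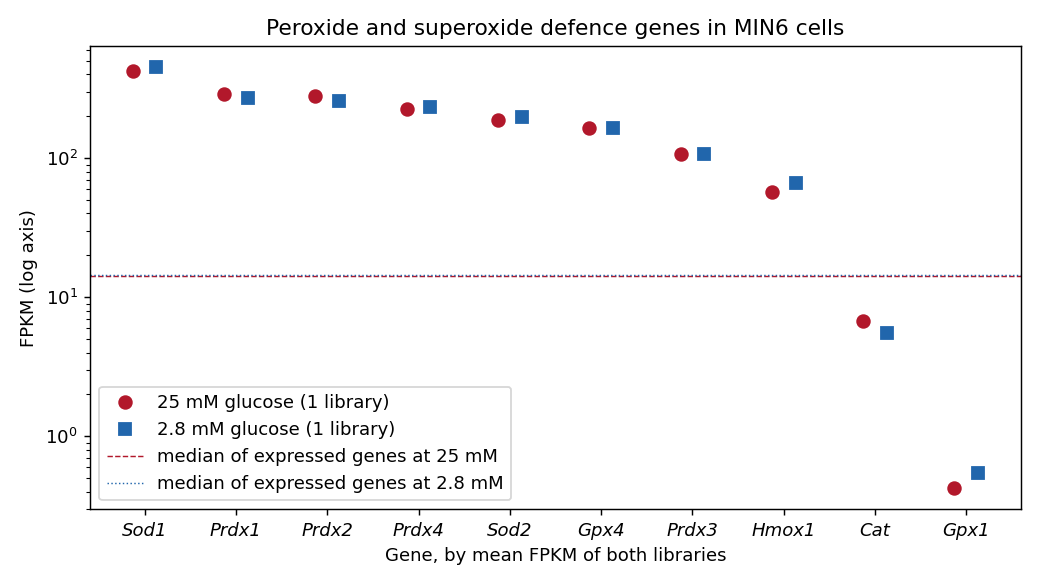
FPKM (log axis) of the 10 defence genes in the 25 mM library (circles) and the 2.8 mM library (squares), ordered by mean FPKM, with the median of all expressed genes in each library as a line. From Sod1 (424 FPKM at 25 mM, 452 at 2.8 mM) to Gpx1 (0.423 at 25 mM, 0.545 at 2.8 mM), each gene differs by less than 1.5-fold between the libraries.

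Of the superoxide dismutases, Sod1 headed the set and Sod2 was the fifth by listed FPKM, without copies added. Sod1 (ENSMUSG00000022982, GRCm38 chr16:90220754-90226329), the copper and zinc enzyme of the cytosol, was at 424 FPKM at 25 mM, against 452 at 2.8 mM. Its level was above that of 98.5% of the expressed genes and the highest of the 10. Sod2 (ENSMUSG00000006818, chr17:13006846-13040063), the manganese enzyme of mitochondria, was at 188 FPKM at 25 mM, against 196 at 2.8 mM. Sod1 was thus 2.26-fold above Sod2 at 25 mM and 2.30-fold at 2.8 mM. Sod3, the secreted enzyme, was at 0.755 FPKM at 25 mM and 0.501 at 2.8 mM and did not count as expressed. Ccs, which delivers copper to Sod1, was at 22.4 FPKM at 25 mM, against 23.7 at 2.8 mM.

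Catalase and the glutathione peroxidases stood apart from this. Cat (ENSMUSG00000027187, chr2:103453849-103485160) was at 6.73 FPKM at 25 mM, against 5.49 at 2.8 mM, a level above that of 29.3% of the expressed genes. The summed level of Sod1 and Sod2 was 90.8 times that of Cat at 25 mM and 118 times at 2.8 mM. Gpx1 (ENSMUSG00000063856, chr9:108338903-108340343), the main cytosolic glutathione peroxidase of most tissues, was at 0.423 FPKM at 25 mM, against 0.545 at 2.8 mM. That corresponds to only 3 to 6 fragments at 25 mM and 4 to 8 at 2.8 mM, according to which coding transcript they came from. No 31-base stretch of its longest coding transcript occurred in another annotated gene, so its few fragments are not shared with an annotated copy.

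Of the 8 glutathione peroxidase genes, Gpx4 was the only one expressed. Gpx4 (ENSMUSG00000075706, chr10:80047166-80056439), which reduces lipid hydroperoxides in membranes, was at 164 FPKM at 25 mM, against 166 at 2.8 mM. It was 387-fold above Gpx1 at 25 mM and 304-fold at 2.8 mM, ratios that rest on the few Gpx1 fragments. Gpx6 was at 0.235 FPKM at 25 mM and 0.145 at 2.8 mM, and Gpx3, the plasma form, was listed at 0 at 25 mM and at 0.0779 FPKM at 2.8 mM. Gpx2, Gpx5, Gpx7 and Gpx8 were listed at 0 in both libraries; Gpx7 and Gpx8 encode the peroxidases of the endoplasmic reticulum.

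Gpx1 and Gpx4 are both selenoproteins, whose active site is a selenocysteine read from a TGA codon. The coding stretches around that codon are shown because the 2 genes share this chemistry and yet differed widely in level. The TGA in capitals is the in-frame codon, number 47 of the Gpx1 coding sequence and 129 of that of Gpx4 in the GENCODE transcripts used. The third line is the matching stretch of Gpx4-ps2, a transcribed processed pseudogene, where the capital marks the base that differs.
Gpx1: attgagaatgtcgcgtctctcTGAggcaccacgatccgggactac
Gpx4: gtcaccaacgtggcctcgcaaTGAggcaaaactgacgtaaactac
Gpx4-ps2: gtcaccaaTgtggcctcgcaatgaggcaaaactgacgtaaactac

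Gpx1 and Gpx4 had 25 of these 45 bases in common and no shared run longer than 9 bases in their coding sequences. The pseudogene on chr10:45875291-45876086 differed from Gpx4 by 1 base in the stretch, C9T, counted from 1 at the 5′ end of the line, with the Gpx4 base first. It was itself listed at 82.8 FPKM at 25 mM, against 85.8 at 2.8 mM, which is 0.505 of the Gpx4 level at 25 mM and 0.518 at 2.8 mM. Of the 31-base stretches of the longest Gpx4 coding transcript, 66.4% occurred in Gpx4-ps2, so how much of either level belongs to the other gene is uncertain. Added together with a second copy, the genes came to 247 FPKM at 25 mM, against 251 at 2.8 mM.

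Among the members that remove peroxide, the peroxiredoxins had the largest summed level. Prdx1 (ENSMUSG00000028691, chr4:116685544-116700822), a cytosolic enzyme, was at 289 FPKM at 25 mM, against 271 at 2.8 mM. Prdx2 (ENSMUSG00000005161, chr8:84969587-84974834), its cytosolic relative, was at 280 FPKM at 25 mM, against 256 at 2.8 mM. The ranges of Prdx1 and Prdx2 overlapped, so these neighbours were not told apart. By the listed values, all other neighbours in the order of the 10 genes kept their order without overlap between the libraries. With copies added, Gpx4 (247 FPKM at 25 mM, 251 at 2.8 mM) stood above Prdx4 and Sod2 in both libraries. The place of Gpx4 in the order is thus uncertain.

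Prdx4 (ENSMUSG00000025289, chrX:155323918-155340754), the enzyme of the endoplasmic reticulum, was at 225 FPKM at 25 mM, against 232 at 2.8 mM. Prdx3 (ENSMUSG00000024997, chr19:60864051-60874556), the mitochondrial enzyme, was at 107 FPKM at 25 mM, against 108 at 2.8 mM, and so at 0.570 of the level of Sod2, in the same compartment, at 25 mM and 0.550 at 2.8 mM. Summed, Prdx1 to Prdx4 stood at 901 FPKM at 25 mM, against 867 at 2.8 mM. That was 134 times the level of Cat at 25 mM and 158 times at 2.8 mM. Outside the 10 genes, Prdx5, which acts in mitochondria, peroxisomes and cytosol, was at 94.8 FPKM at 25 mM, against 97.3 at 2.8 mM. Prdx5 overlaps Trmt112 on the opposite strand, which was at 59.3 FPKM at 25 mM and 66.0 at 2.8 mM. Of the 31-base stretches of the longest Prdx5 coding transcript, 30.8% lie in Trmt112, though 0% of the coding ones do. The Prdx5 level is thus uncertain. Prdx6, which uses glutathione in place of thioredoxin, was at 28.3 FPKM at 25 mM and 29.0 at 2.8 mM, and Prdx6b was listed at 0 in both.

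The 4 peroxiredoxins share a reaction centre, the cysteine that is oxidised by peroxide. The coding stretches around it are shown because they carry this shared chemistry in genes that differ in compartment and level. The cysteine codon is in capitals, and the sequences are those of GENCODE transcripts.
Prdx1: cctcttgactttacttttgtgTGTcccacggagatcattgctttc
Prdx2: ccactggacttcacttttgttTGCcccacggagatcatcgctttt
Prdx3: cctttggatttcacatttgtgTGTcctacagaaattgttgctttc
Prdx4: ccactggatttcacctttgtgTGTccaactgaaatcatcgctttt

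Between pairs of these lines 32 (Prdx2 and Prdx3) to 38 of 45 bases were equal. The longest run of bases that any pair shared anywhere in the coding sequence was 23, between Prdx2 and Prdx4. No pair of these peroxiredoxins thus shared a run of 31 coding bases, but several of the members did share such runs with processed copies. The stretch of Prdx1 occurred without a difference in the pseudogene Gm21399, on chr8:129252998-129253594, which was listed at 2.73 FPKM at 25 mM, against 2.63 at 2.8 mM. Of the 31-base stretches of the coding sequence, 68.6% occurred in another annotated gene for Prdx1, 57.8% for Gpx4, 50% for Sod1 and 39.2% for Prdx2. The share was 0 for the other 6 genes. The copy of Sod1, Gm8566, was at 13.9 FPKM at 25 mM, against 11.8 at 2.8 mM, and that of Prdx2, Tdpx-ps1, at 4.37 FPKM at 25 mM and 8.71 at 2.8 mM. Prdx2 also overlaps Junb and Rnaseh2a, and Sod1 overlaps Scaf4, on the opposite strand, and the sources used here do not say whether reads were counted by strand.

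**Figure D2:**
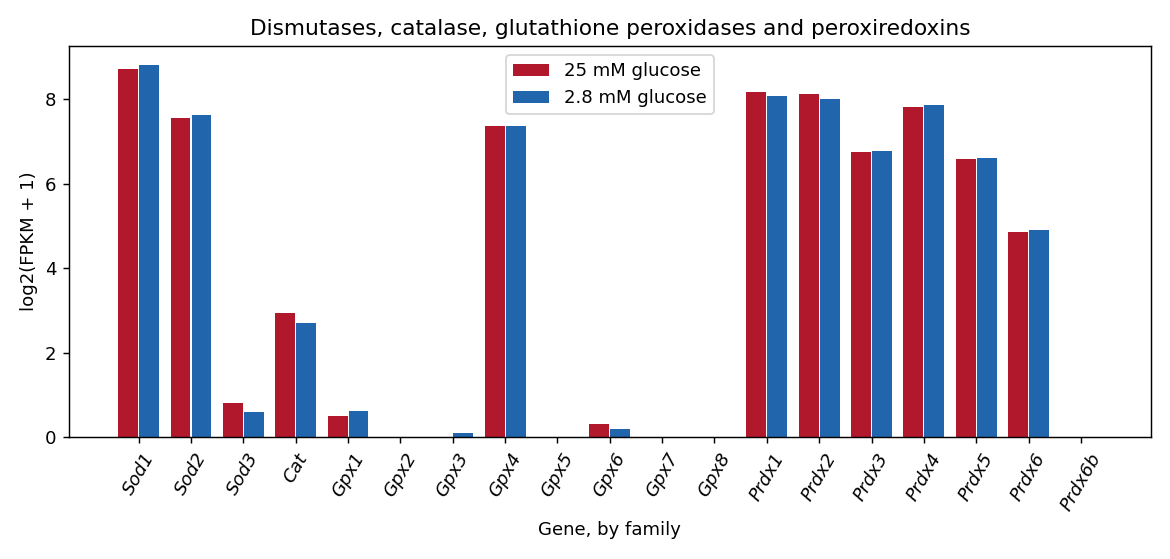
log2(FPKM + 1) of all measured superoxide dismutases, catalase, glutathione peroxidases and peroxiredoxins, with the 25 mM library left of the 2.8 mM library for each gene. Among the 8 glutathione peroxidases only Gpx4 has a tall bar, whereas 6 of 7 peroxiredoxins do, and Cat lies between these and the genes near 0.

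Hmox1 (ENSMUSG00000005413, chr8:75093621-75100589) was at 56.8 FPKM at 25 mM, against 66.0 at 2.8 mM, above 84.7% of the expressed genes. It was 2.89-fold at 25 mM and 3.32-fold at 2.8 mM above Hmox2, the constitutive heme oxygenase gene, which was at 19.7 FPKM at 25 mM and 19.9 at 2.8 mM. Hmox2 overlaps Cdip1 on the opposite strand, which was at 19.4 FPKM at 25 mM and 18.7 at 2.8 mM. Of the 31-base stretches of the longest Hmox2 coding transcript, 49.4% lie in Cdip1, and of the coding ones 21.9%. The Hmox2 level, and with it the ratio of Hmox1 to Hmox2, is thus uncertain.

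Promoters were searched for the core of the antioxidant response element, TGACNNNGC, to which NRF2 binds with a small Maf protein. RefSeq promoters of GRCm38.p6, from 250 bases before to 50 bases after the first listed start, were found for 9 of the 10 genes, without Hmox1. Gpx4 had 4 listed starts, of which only the first was searched. Of these 9 promoters, 2 held a match on either strand, against 12.5% of 27025 promoters. The matches lay in Prdx1 (first base 133 bases upstream of the start) and Sod1 (56 bases upstream). They are shown with the match in capitals, on the strand of the gene, Prdx1 from chr4:116685441-116685500 (plus strand) and Sod1 from chr16:90220681-90220740 (plus strand).
Prdx1: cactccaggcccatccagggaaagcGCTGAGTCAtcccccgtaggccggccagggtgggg
Sod1: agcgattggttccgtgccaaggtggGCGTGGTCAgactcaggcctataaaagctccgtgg

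Both matches read TGACNNNGC on the opposite strand. A match describes these letters only and is not a measured binding site.

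The comparison of the 2 concentrations asked whether these transcripts differed after 1 h. None of the 10 genes differed by 1.5-fold, the size used for calling a difference. Of all expressed genes, 1.95% were at least 1.5-fold higher and 2.51% at least 1.5-fold lower at 25 mM, together 4.45%, so a count of 0 among the 9 expressed members is close to that background. Changes are given as log2 of the ratio of FPKM + 1 between the libraries, 25 mM over 2.8 mM, a scale on which low genes change too little. The median log2 change was -0.02 over the 9 expressed members and -0.02 over all expressed genes. By sign, 3 of the 9 were higher and 6 lower at 25 mM. In bulk RNA, fewer cells of a type and less RNA per cell cannot be told apart.

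Cat had the highest log2 change of the members, 0.25, which was 1.23-fold without the pseudocount. Between 58 and 265 fragments stood behind it at 25 mM and between 53 and 251 at 2.8 mM, according to the coding transcript they are given to. The exact 95% interval of the log2 ratio was 0.04 to 0.55 with the longest transcript and -0.26 to 0.87 with the shortest. These intervals cover counting error only and compare libraries, not conditions. Protein-coding genes with a mean of 5 to 10 FPKM, 1651 in all, had a median absolute log2 change of 0.13. The erythroid markers were also higher in sum at 25 mM, mainly by Alas2 (0.549 FPKM at 25 mM, 0.181 at 2.8 mM), with 3 of 8, the globin genes Hba-a2, Hbb-bs and Hbb-bt, at 0 in both libraries, and their part in the Cat difference was not tested.

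Hmox1 had the lowest log2 change of the expressed members, -0.21. Its single coding transcript put 1240 fragments behind the value at 25 mM and 1661 at 2.8 mM, with an interval of the log2 ratio from -0.32 to -0.11. The 2516 protein-coding genes with a mean of 30 to 100 FPKM had a median absolute log2 change of 0.08. The macrophage and leukocyte markers, of which 5 of 9 were at 0 in both libraries, were also lower in sum at 25 mM. That sum rested on Cd68, at 3.98 FPKM at 25 mM, against 5.20 at 2.8 mM, whereas Cd79a (1.20 FPKM at 25 mM, 0.870 at 2.8 mM) and Lyz2 (0.114 FPKM at 25 mM, 0.0495 at 2.8 mM) were higher at 25 mM. Their part in the Hmox1 difference was not tested.

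The other members lay closer together. Prdx2 and Prdx1 were higher at 25 mM by log2 changes of 0.13 and 0.09, and Sod1 was lower by a log2 change of -0.10. For Prdx2 the interval ran from 0.08 to 0.18 with the longest coding transcript and from 0.05 to 0.20 with the shortest. For Prdx1 it ran from 0.05 to 0.13 with the longest and from -0.007 to 0.19, across 0, with the shortest. Sod1 has 1 coding transcript and an interval from -0.17 to -0.02. All 3 may share fragments with their copies. With the copies added, the log2 changes were 0.10 for Prdx2, 0.09 for Prdx1 and -0.09 for Sod1. The log2 changes of Sod2 (-0.06), Prdx4 (-0.04), Gpx4 (-0.02) and Prdx3 (-0.01) were negative, and those of all 4 became positive after scaling the libraries to an equal sum of FPKM. Prdx3 has 1 transcript, with 2171 fragments at 25 mM and 2525 at 2.8 mM, and its log2 ratio had an interval from -0.10 to 0.07. For Prdx4 the interval was -0.12 to 0.03 with the longest coding transcript. The value of Gpx1 at this depth allowed a log2 ratio from -2.03 to 1.5 even with its longest transcript, so a difference of its level was not detectable in either direction.

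**Figure D3:**
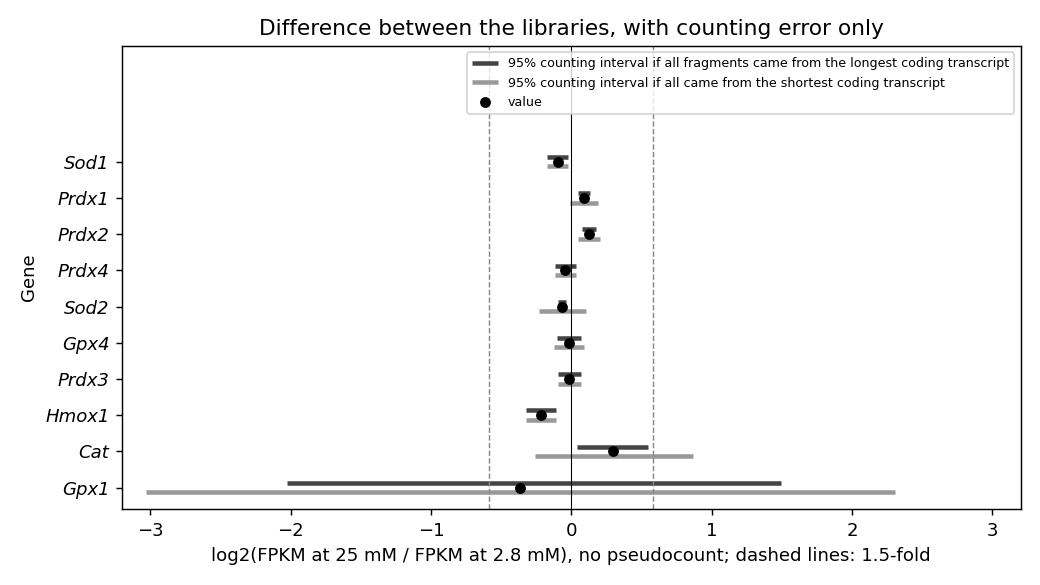
log2 ratio of FPKM at 25 mM over 2.8 mM without a pseudocount (points) for the 10 genes, with exact 95% counting intervals (bars) for fragments given to the longest or the shortest coding transcript; dashed lines mark 1.5-fold. The points of all 10 genes lie between the dashed lines, and the bars of Gpx1, from 3 to 8 fragments per library, are by far the widest.

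Genes around these enzymes were taken from 10 lists of 111 genes, which include 9 of the 10 defence genes, all but Cat. The other 102 genes supply, recycle or regulate the enzymes, are relatives of them, or make peroxide and superoxide, and 75 of them were expressed. Of those 75, 0 were at least 1.5-fold higher and 2 at least 1.5-fold lower at 25 mM, Txnrd2 and Maff, with a median log2 change of -0.01. The counts stood near the 1.95% and 2.51% of all expressed genes. With a pseudocount of 0.1 the count of lower genes was 4, against 4.13% of all expressed genes, and that of higher genes 0, against 2.87%. The genes added were Ggct, of glutathione turnover, at 2.39 FPKM at 25 mM, against 3.74 at 2.8 mM, and Noxo1, for an organiser of NADPH oxidase, at 1.62 FPKM at 25 mM, against 2.65 at 2.8 mM. Noxo1 overlaps Tbl3 on the opposite strand, and 81.8% of its coding 31-base stretches lie in that gene. Tbl3 was at 16.9 FPKM at 25 mM and 17.3 at 2.8 mM, so the Noxo1 level is uncertain. Txnrd2 and Maff were past 1.5-fold with both other pseudocounts and both rescalings.

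Txnrd2 belongs to the thioredoxin and glutaredoxin system, which reduces oxidised peroxiredoxins. It encodes the mitochondrial thioredoxin reductase, which keeps the pathway of Prdx3 reduced, and was at 6.69 FPKM at 25 mM, against 12.9 at 2.8 mM, a log2 change of -0.85. The interval of its log2 ratio was -1.15 to -0.74 with the longest of its 11 coding transcripts and -1.68 to -0.21 with the shortest. It has 16 annotated transcripts, so its value depends on how fragments were divided among them. Its partner gene Txn2, mitochondrial thioredoxin, was at 62.6 FPKM at 25 mM, against 70.8 at 2.8 mM (log2 change -0.18). In the cytosol, Txn1, the most abundant of the list, was at 173 FPKM at 25 mM and 183 at 2.8 mM and its reductase gene Txnrd1 at 88.6 FPKM at 25 mM and 94.2 at 2.8 mM. Txnrd3, the lowest, was at 1.88 FPKM at 25 mM and 2.26 at 2.8 mM. Glrx2, a mitochondrial glutaredoxin gene, had the highest log2 change of the 12 expressed genes, 0.36, at 23.1 FPKM at 25 mM, against 17.8 at 2.8 mM.

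Maff, for a small Maf protein that pairs with NRF2 and with its competitor BACH1, was at 10.9 FPKM at 25 mM, against 20.3 at 2.8 mM, a log2 change of -0.84. The NRF2 list had a median log2 change of -0.09, against -0.02 over all expressed genes. Of its 18 expressed genes, 14 were lower in sign, and 12 of 18 after rescaling to the same sum. The share of all expressed genes lower in sign was not counted, so this count has no background beside it. The NRF2 gene Nfe2l2 itself was at 16.2 FPKM at 25 mM, against 16.4 at 2.8 mM, and Keap1, for the protein that marks NRF2 for degradation, at 19.9 FPKM at 25 mM and 19.3 at 2.8 mM. Bach1, for the repressor of Hmox1, was at 13.4 FPKM at 25 mM, against 16.1 at 2.8 mM, Mafg at 73.8 FPKM at 25 mM and 85.2 at 2.8 mM, and Mafk at 8.04 FPKM at 25 mM and 10.2 at 2.8 mM. None of these 5 was 1.5-fold apart. Sqstm1 was the most abundant of the list at 667 FPKM at 25 mM and 707 at 2.8 mM, and Gsta4 the lowest expressed at 6.74 FPKM at 25 mM and 6.72 at 2.8 mM. Nqo1, a standard NRF2 target, was at 0.0464 FPKM at 25 mM and listed at 0 at 2.8 mM.

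Glutathione synthesis and reduction had 11 of 14 genes expressed and a median log2 change of 0.01, with 0 genes 1.5-fold apart at a pseudocount of 1 and 1, Ggct, at 0.1. Slc3a2, for the shared chain of amino acid exchangers, was the highest at 448 FPKM at 25 mM, against 443 at 2.8 mM, and Oplah the lowest at 2.27 FPKM at 25 mM and 2.19 at 2.8 mM. Gsr, for glutathione reductase, was at 12.3 FPKM at 25 mM, against 11.3 at 2.8 mM. Gclm and Gclc, for the subunits of the enzyme that limits glutathione synthesis, were far apart in level, with Gclm at 123 FPKM at 25 mM and 115 at 2.8 mM and Gclc at 13.8 FPKM at 25 mM and 14.6 at 2.8 mM. In the heme and ferritin list the ferritin gene Ftl1 was highest at 2245 FPKM at 25 mM and 2253 at 2.8 mM, although 95.4% of the 31-base stretches of its coding sequence occurred in other annotated genes, and the biliverdin reductase gene Blvrb lowest at 14.1 FPKM at 25 mM and 14.2 at 2.8 mM. The 8 genes of that list had a median log2 change of 0.03, with 4 lower in sign, Hmox1 among them. After rescaling to the same sum the median was 0.10, and 1 gene, Hmox1, was lower in sign.

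Of 25 genes for sources of hydrogen peroxide and superoxide, 11 were expressed and the median log2 change was -0.03. With the pseudocount of 1 the count at 1.5-fold was 0, and with 0.1 it was 1, Noxo1, lower at 25 mM. The Noxo1 level is uncertain because of its overlap with Tbl3. Maob, for a mitochondrial amine oxidase, was the highest at 426 FPKM at 25 mM, against 436 at 2.8 mM. Ero1lb, the oxidase of the endoplasmic reticulum that makes hydrogen peroxide while disulfide bonds form, was at 383 FPKM at 25 mM, against 431 at 2.8 mM. That was 1.70 times the level of Prdx4 in the same compartment at 25 mM and 1.86 times at 2.8 mM. Of the Ero1lb coding sequence, 49.6% of 31-base stretches occurred in the pseudogene Gm18562, so the Ero1lb level is uncertain. Gm18562 itself was listed at 8.03 FPKM at 25 mM, against 7.79 at 2.8 mM. Ero1l was at 46.9 FPKM in both libraries, and Paox, the lowest expressed of the list, at 1.27 FPKM at 25 mM and 1.47 at 2.8 mM. The NADPH oxidase genes Nox3, Nox4, Cybb, Duox1 and Duox2 were listed at 0 in both libraries, as was Cyba, for the subunit that Nox and Cybb proteins need. Nox1 was at 0.168 FPKM at 25 mM and 0.167 at 2.8 mM, below the expression limit. By sign 10 of the 11 expressed genes were lower at 25 mM, but 4 of 11 after rescaling to the same sum, with a median of 0.03.

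Catalase reaches peroxisomes through import factors. A list of 10 genes for peroxisomal import was read, not all of them specific to catalase, and all 10 were expressed. The highest was Pex2 at 31.1 FPKM at 25 mM, against 30.4 at 2.8 mM. Pex5, for the import receptor, was at 19.6 FPKM at 25 mM, against 18.1 at 2.8 mM, above Cat in both. The median log2 change was 0.09 and 0 were 1.5-fold apart. The 8 genes listed under selenoprotein synthesis were all expressed. They ran from Scly at 86.8 FPKM at 25 mM and 80.5 at 2.8 mM to Secisbp2 at 7.19 FPKM at 25 mM and 6.67 at 2.8 mM. Their median log2 change was 0.08, with 0 genes 1.5-fold apart. The peroxiredoxin list, which includes Srxn1, the sulfiredoxin gene whose product repairs over-oxidised peroxiredoxins (45.9 FPKM at 25 mM and 48.9 at 2.8 mM), had a median log2 change of -0.04 over 7 genes. It was 0.03 after rescaling to the same sum. The dismutase list had a median of -0.08 over 3 genes.

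**Figure D4:**
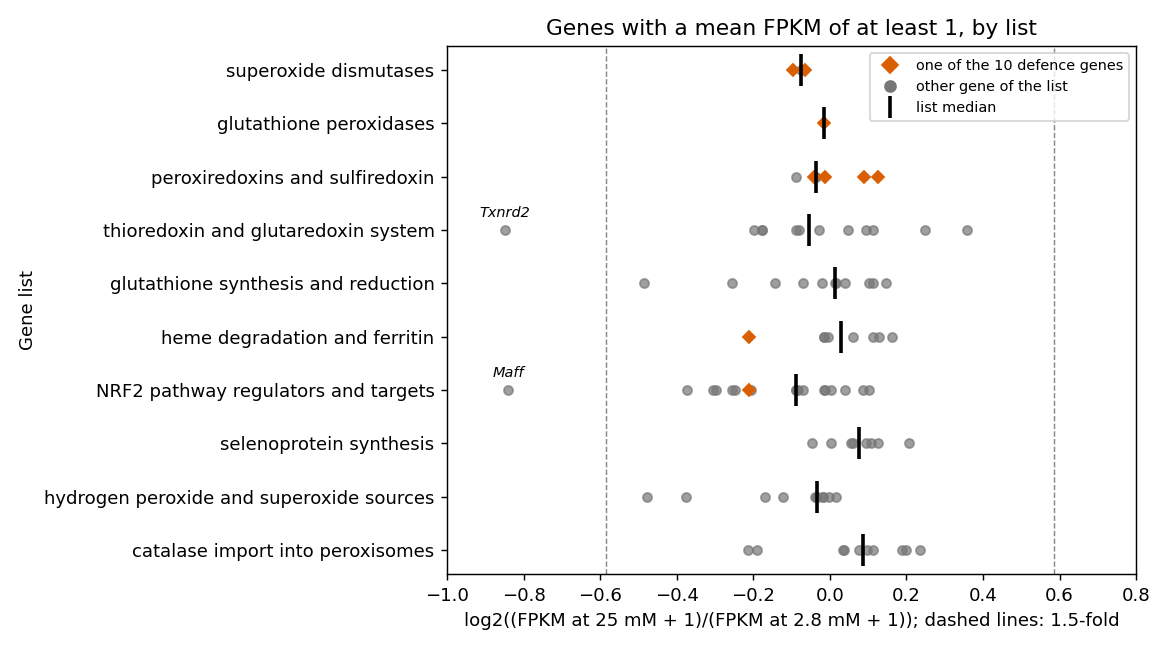
Change at 25 mM over 2.8 mM, as log2 of the ratio of FPKM + 1, of the expressed genes of each list, with the 8 defence genes that are in a list and expressed as diamonds (Cat is in no list and Gpx1 was not expressed), other genes as circles and list medians as bars; dashed lines mark 1.5-fold. Among the 83 expressed genes, and with the pseudocount of 1, only Txnrd2 (-0.85) and Maff (-0.84) lie outside the dashed lines, both lower at 25 mM.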

How the data were processed

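RNA was sequenced from MIN6 cells, 1 library per glucose concentration. The deposited values are FPKM per the file headers. The submitters' processing notes list HISAT2, Cuffdiff and GRCm38 and no version. Library kit, strandedness and annotation release: not given in the sources used here. In each file 1 row was empty and not used. Samples were grouped by the treatment label. The members and gene lists were chosen with earlier results of these data known, and genes outside the rule (every member, every measured dismutase, glutathione peroxidase and peroxiredoxin, each list's highest and lowest expressed gene, and genes 1.5-fold apart) were named after their values were seen. Some genes that the rule names are not reported here.

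With 1 library per group there was no test. A pseudocount of 1 was used, with a filter of mean FPKM at least 1 and a threshold of 1.5-fold. Transcript lengths, coordinates and shared 31-base stretches came from GENCODE vM21 (GRCm38), whose gene symbols match the files' rows for all 10 members. Total fragments were fitted to the FPKM steps of single-transcript genes of at least 800 nt. For the 25 mM library 95.4% of 1846 values, and for the 2.8 mM library 95.7% of 2062, lay within 0.1 of a whole fragment. The fit and the calls were run on simulated data with counting noise only. For the calls, the planted changes were larger than the threshold and lay in genes well above the filter. That run thus says nothing of low genes, of smaller changes or of variation between libraries. Intervals are exact (Clopper-Pearson, 95%) and cover counting error only; PCR copies are not independent molecules. Alternatives were other pseudocounts, filters, a 2-fold threshold, 2 rescalings, centring and summing rows by symbol; summing processed copies and leaving out genes with copies were chosen after seeing the data. Software was Python 3.11.15 with Biopython 1.88, matplotlib 3.10.9, SciPy 1.17.1, pandas 2.3.3 and NumPy 2.4.6.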

Additional observations from a re-analysis of the deposited data

How the results depend on the processing

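The count of defence genes at least 1.5-fold apart was 0 in each direction with pseudocounts of 0.1 and 5, both rescalings, centring, summed rows, a 2-fold threshold, no filter, a filter of 5, copies summed and genes with copies left out. The median log2 change, -0.02, ranged from -0.04 without genes that have copies to 0.05 after scaling both libraries to an equal sum of FPKM. That scaling put the median of all expressed genes at 0.05 as well. As a share of a sum without mitochondrial and top 10 genes, the members took 0.314% at 25 mM and 0.308% at 2.8 mM, larger by construction. Among the other list genes, the count 1.5-fold lower was 2, and 4 with a pseudocount of 0.1. Cat stayed between 0.16 and 0.31 and Hmox1 between -0.21 and -0.14. FPKM of genes with several transcripts depends on how fragments were divided among them. No paired analysis was possible because each glucose concentration had 1 library.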

Other observations

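Because Gpx1 was barely detected, the other selenoprotein genes were read from the same tables with a list of 24 genes chosen after the values of the members were seen. Of these, 17 were expressed. The highest were Selenof, of the endoplasmic reticulum, at 194 FPKM at 25 mM, against 192 at 2.8 mM, Selenot at 184 FPKM at 25 mM and 181 at 2.8 mM, and Gpx4. Selenop, a secreted carrier of selenium, was at 47.4 FPKM at 25 mM, against 45.2 at 2.8 mM, above Gpx1 in both. The deiodinase genes Dio1 and Dio3 and the gut peroxidase gene Gpx2 were listed at 0 in both libraries. With the pseudocount of 1, Txnrd2 was the only one of the 17 that was 1.5-fold apart, and the median log2 change was -0.03.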
